A study of Homo sapiens with 14 samples.

Results

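Receptor tyrosine kinases that are linked to invasion were followed across polysome fractions of MDA-MB-231 cells, an established human breast cancer cell line with basal, mesenchymal-like features, with and without silencing of DAP5. The group held 10 genes chosen by name out of the 58434 gene symbols in the count table: the hepatocyte growth factor receptor MET and its relative MST1R, the GAS6 receptor AXL, the insulin family receptors IGF1R and INSR, the ephrin receptors EPHA2 and EPHB2, the growth factor receptors FGFR1 and PDGFRB, and the collagen receptor DDR2. All 10 passed the low-count filter in every comparison, with MST1R, DDR2 and PDGFRB close to its lower end. Control cells carried a doxycycline-inducible non-silencing shRNA (shNSi) and silenced cells an inducible shRNA against DAP5 (shDAP5), both integrated with a lentiviral vector, and both lines received doxycycline at 1 µg/ml for 6 days, so the drug was common to all libraries. Each line was sampled in 2 cultures as total mRNA, light polysomes (mRNAs with few ribosomes) and heavy polysomes (mRNAs with many), with a moderate polysome pool for the shNSi cultures alone, which gave 14 libraries. Each line was selected with puromycin and sorted on a red fluorescent reporter, each stood for its condition alone, and whether either was a single clone is not given in the sources used here.

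Receptor tyrosine kinases span the plasma membrane, bind a ligand outside the cell and phosphorylate themselves and adaptor proteins inside it, which feeds the RAS-MAPK, PI3K-AKT and STAT pathways. In mesenchymal-like breast cancer cells AXL, MET and EPHA2 are known for their part in motility and drug resistance, while IGF1R and INSR are known for growth and survival signalling. Their mRNAs are long and are translated at the endoplasmic reticulum, and how many ribosomes an mRNA carries depends both on how often translation starts and on how long the coding sequence is. DAP5, the product of EIF4G2, is a relative of the scaffold eIF4G that lacks the site for the cap-binding protein eIF4E.

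Start codon contexts are shown for the receptors that fell in heavy polysomes and for AXL, since the study concerns translation initiation. Each run reads from 5′ to 3′ along the mRNA and comes from the GENCODE v29 transcript with the longest principal coding sequence. Capitals mark the base at −3 (counted back from the A of the start codon), the ATG and the base at +4.
MET: aaacctctcAtaATGAaggccccc
DDR2: ccatcttctGagATGAtcctgatt
INSR: gctcccgcaGccATGGccaccggg
EPHB2: ggaagcgcaGccATGGctctgcgg
IGF1R: caaataaaaGgaATGAagtctggc
EPHA2: gagaagcgcGgcATGGagctccag
AXL: agtttggcaCccATGGcgtggcgg
In GRCh38 the start codon of MET lies in exon 2 at chr7:116699085-116699087 (plus strand) and that of DDR2 in exon 4 at chr1:162719064-162719066 (plus strand). Those of the other 5 lie in exon 1, at chr19:7293889-7293891 (minus strand) for INSR, chr1:22710983-22710985 (plus strand) for EPHB2, chr15:98649582-98649584 (plus strand) for IGF1R, chr1:16155930-16155932 (minus strand) for EPHA2 and chr19:41219393-41219395 (plus strand) for AXL. The context of FGFR1 is not reported here, which leaves 9 receptors. A purine at −3, as in all those shown but AXL, occurred in 7 of the 9 and in 86.1% of 12130 genes tested. A G at +4 occurred in 5 of the 9 and in 52.8% of those genes. Both together, as in INSR, EPHA2 and EPHB2, occurred in 3 of the 9 and in 45.3%. MET and DDR2, the receptors called in heavy translation efficiency as well, had a purine at −3 and an A at +4, as did IGF1R.

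The receptors shared long coding sequences. Their median coding length was 3142.5 nucleotides (2469 to 4203), against a median of 1416 over 12462 genes tested, and all 10 lay above that median. MST1R at 4203, MET at 4173, INSR at 4149 and IGF1R at 4104 nucleotides were the longest, and FGFR1 at 2469, DDR2 at 2568 and AXL at 2685 the shortest. Leaders did not stand out in the same way, with a median of 195 nucleotides against 204 and a GC content of 70.4% against 66.1%. EPHB2 had an annotated leader of 13 nucleotides and IGF1R 1043. No upstream ATG was present in the leaders of 4 receptors (AXL, EPHA2, EPHB2 and MST1R), as in 46.1% of the genes tested, and DDR2 had 5.

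Library totals ran from 25899838 to 30795910 counts, and replicate libraries correlated at a Pearson's r of 0.967 to 0.989 in log2 CPM (counts scaled to a common library size with TMM factors over the whole set). That r is over 16235 genes, and genes are no independent replicates. EIF4G2, the targeted gene, was at 1442 and 1396 CPM in shNSi total mRNA and at 541 and 749 CPM in shDAP5 total mRNA, and the groups did not overlap. Its log2 change was −1.11 (standard error 0.18, adjusted p = 0.0172 by the quasi-likelihood test of edgeR, Benjamini-Hochberg adjusted). That call was lost without shDAP5 replicate 1 (−0.90, adjusted p = 0.680), without TMM (0.0501) and with all 14 libraries in 1 fit (0.443, edgeR), and with limma (0.0612). Of the cell line markers, all 4 basal mesenchymal genes (VIM, CD44, CAV1, FN1) passed the filter, while of 6 luminal genes PGR had no read and CDH1 did not exceed 0.252 CPM. The other 4 luminal genes passed it too, GATA3 at 8.92 to 16.8 CPM, EPCAM at 2.85 to 6.27 CPM, and ESR1 and FOXA1 at no more than 0.562 and 0.821 CPM. The summed level of the luminal list was 12.9 to 21.2 CPM in shNSi and 13.8 to 23.0 CPM in shDAP5 libraries, and no leukocyte marker of 3 passed the filter, nor did the endothelial marker CDH5. The summed level of the basal mesenchymal list was 2306 to 16158 CPM in shNSi and 1749 to 6044 CPM in shDAP5 libraries, and its part in the results was not tested. The ranges of both lists run over all fractions, with the moderate pool in shNSi alone, so they do not compare the lines fraction by fraction. The shDAP5 light libraries carry the code that the shNSi moderate pool has, and the shDAP5 total libraries are titled as total polysome. Both were used by title as light polysomes and as total mRNA, and the comparisons of light polysomes, total mRNA, translation efficiency and heavy over light between the lines rest on that reading.

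Levels of the receptors in shNSi total mRNA, given per kilobase of transcript so that genes can be compared, spanned a wide range. AXL was the most abundant at 195 ± 7.73 CPM per kilobase (SD, n = 2), followed by EPHA2 at 89.6 ± 23.9. FGFR1 at 26.5 ± 4.84 and EPHB2 at 24.0 ± 6.59 came next and did not differ beyond the spread between cultures. MET, which binds hepatocyte growth factor, was at 14.99 ± 1.68, close to the listed receptors PTK7 (15.3) and EGFR (14.6). IGF1R at 4.14 ± 0.877 and INSR at 2.94 ± 0.583 were lower. MST1R (0.574 ± 0.00289), DDR2 (0.375 ± 0.169) and PDGFRB (0.195 ± 0.00475) closed the order. The scarce receptors had few reads in any library, with 57 to 129 for MST1R, 55 to 201 for DDR2 and 24 to 43 for PDGFRB, so that changes of the size seen for the abundant receptors are estimated less precisely in them.

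In control cells the receptor mRNAs lay towards the heavy end of the gradient. INSR had 17.0 and 37.3 CPM in the heavy and 5.34 and 7.77 CPM in the light polysomes of the shNSi cultures. MET had 165 and 243 CPM in heavy polysomes against 61.2 and 47.7 CPM in light ones. EPHB2, a receptor for B-type ephrins, had 106 and 219.7 CPM against 33.7 and 58.9 CPM. In each of these receptors both heavy libraries lay above both light libraries. On the log2 scale the heavy over light difference within shNSi was 1.92 for INSR, 1.84 for MET, 1.77 for IGF1R, 1.72 for EPHB2 and 1.64 for DDR2 (standard errors 0.29 to 0.34), and the adjusted p by the quasi-likelihood test of edgeR (Benjamini-Hochberg) was 2.02e-05 for INSR and 0.000362 for DDR2. EPHA2 (0.96, adjusted p = 0.0281 in the same edgeR fit), AXL (0.89, 0.0431) and MST1R (0.81, 0.0492) also passed, which made 8 of 10 higher in heavy polysomes, against 30.5% of all 15878 genes. PDGFRB (0.61) and FGFR1 (0.23) did not pass.

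FGFR1, the fibroblast growth factor receptor, stood apart from the rest along the gradient. Its highest shNSi levels were in the moderate pool (181 and 268 CPM), with 152 and 189 CPM in heavy and 96.7 and 201 CPM in light polysomes, and the heavy and light ranges overlapped. The direction of its heavy over light difference turned without TMM (−0.21) and with quantile normalization and limma (−0.27), while without shNSi replicate 1 it was −0.13. The median heavy over light difference of the 10 receptors was 1.30, against −0.15 over all genes. Without shNSi replicate 2, AXL (0.79), EPHA2 (0.42) and MST1R (0.56) did not pass, and without replicate 1 AXL (1.01, adjusted p = 0.0546 by edgeR's quasi-likelihood test) did not. In a fit of the 4 shNSi libraries alone MET, IGF1R, INSR, EPHB2 and DDR2 passed, as did 9174 of 14798 genes, 4403 of them higher in heavy polysomes.

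**Figure D1:**
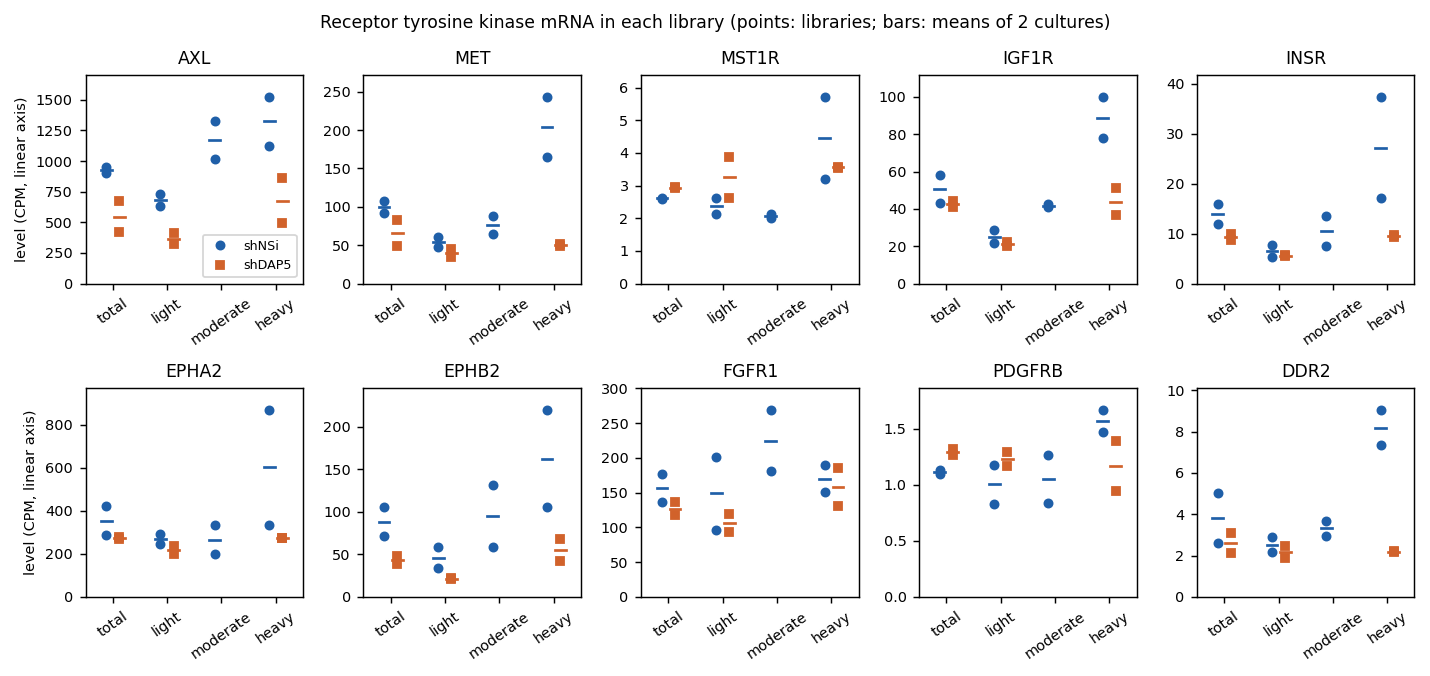
Level of each receptor mRNA in each of the 14 libraries, as CPM after TMM scaling on a linear axis that starts at 0, with blue circles for shNSi, orange squares for shDAP5 and bars for the mean of 2 cultures; each panel has its own axis range. MET in heavy polysomes is at 165 and 243 CPM in shNSi and at 51.3 and 49.2 CPM in shDAP5, whereas the FGFR1 heavy libraries of both lines overlap.

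In total mRNA most receptors were lower after DAP5 silencing, but no receptor passed the adjusted threshold of 0.05, and 4 of 10 had an unadjusted p under 0.05 in edgeR and also in DESeq2. Of all 14992 genes 0.354% passed the adjusted threshold and 12.0% had an unadjusted p under 0.05 in edgeR. EPHB2 had 71.3 and 106 CPM in shNSi and 38.8 and 48.3 CPM in shDAP5 total mRNA. Its log2 change of −0.99 (standard error 0.21) had an adjusted p of 0.0584 by the quasi-likelihood test of edgeR (Benjamini-Hochberg) and 0.00662 by DESeq2, where it was the only receptor called. It also passed in edgeR without shNSi replicate 1 (−1.27) and without shDAP5 replicate 2 (−1.17), but not without shNSi replicate 2 (−0.69, adjusted p = 0.209) or without shDAP5 replicate 1 (−0.85), where 0 of 15585 genes passed.

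AXL, the receptor for GAS6, had 899 and 951 CPM in shNSi and 420.3 and 672 CPM in shDAP5 total mRNA. Both shDAP5 cultures were below both shNSi cultures, and the log2 change was −0.73 (standard error 0.20, adjusted p = 0.144, edgeR). With no low-count filter it passed (−0.76, adjusted p = 0.00397, edgeR). MET had 107 and 91.6 CPM in shNSi and 49.0 and 82.7 CPM in shDAP5, again without overlap, for a log2 change of −0.57 (standard error 0.23, adjusted p = 0.339, edgeR). Without shDAP5 replicate 2, in which both receptors were higher than in replicate 1, AXL was at −1.11 (adjusted p = 0.0110, edgeR) and MET at −0.999 (adjusted p = 0.0368, edgeR). Without shDAP5 replicate 1 they were at −0.44 and −0.25, and neither passed. INSR at −0.54, DDR2 at −0.51, EPHA2 at −0.34, FGFR1 at −0.27 and IGF1R at −0.22 had smaller log2 changes, and PDGFRB (0.24) and MST1R (0.20) had positive ones. Without shNSi replicate 1 DDR2 was at 0.02, IGF1R at −0.010, EPHA2 at −0.62, FGFR1 at −0.47 and INSR at −0.76. Without shNSi replicate 2 they were at −0.91, −0.42, −0.046, −0.075 and −0.33 in the same order. Leaving out shDAP5 replicate 1 gave −0.27 for DDR2 and −0.17 for FGFR1, and leaving out shDAP5 replicate 2 gave −0.81 for DDR2. Silenced cultures were both below the control cultures for 5 of 10 receptors, against 22.9% of all genes. The median log2 change of the receptors was −0.42 and that of all genes 0.01.

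In heavy polysomes 6 of the 10 receptors fell after DAP5 silencing, namely MET, DDR2, EPHB2, INSR, EPHA2 and IGF1R, while 16.7% of all 14270 genes were called lower. The median log2 change was −0.997, against 0.09 over all genes. Over all genes 2390 were lower and 2024 higher, and without TMM, which moved the median of all genes to 0.34, 1139 were lower and 2504 higher. Under that scaling 4 of the 6 receptors passed, among them MET at −1.69 and DDR2 at −1.58, while IGF1R (−0.68, adjusted p = 0.132) and EPHA2 (−0.79, adjusted p = 0.141, edgeR) did not, and with limma EPHA2 (−0.54, adjusted p = 0.252) did not. MET had 165 and 243 CPM in the heavy libraries of shNSi cells and 51.3 and 49.2 CPM in those of shDAP5 cells, so the silenced cultures lay close together and well below the controls. Its log2 change was −1.94 (standard error 0.34, a 3.85-fold lower level, adjusted p = 2.75e-06 by the quasi-likelihood test of edgeR, Benjamini-Hochberg adjusted). MST1R, the receptor most closely related to MET, had 3.20 and 5.71 CPM in shNSi and 3.53 and 3.58 CPM in shDAP5. These ranges overlapped, and its log2 change was −0.24 (standard error 0.42, adjusted p = 0.690, edgeR).

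The collagen receptor DDR2 had 7.35 and 9.04 CPM in shNSi and 2.20 and 2.19 CPM in shDAP5 heavy polysomes, that is 170 and 201 reads against 63 and 55. Its log2 change was −1.82 (standard error 0.42, adjusted p = 0.000330, edgeR). Of the insulin family, INSR had 17.0 and 37.3 CPM in shNSi and 9.71 and 9.23 CPM in shDAP5, with a log2 change of −1.43 (standard error 0.35, adjusted p = 0.000756, edgeR). IGF1R had 77.9 and 99.9 CPM against 51.0 and 36.6 CPM, with a log2 change of −0.94 (standard error 0.33, adjusted p = 0.0201, edgeR). Neither receptor overlapped between the lines.

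Both ephrin receptors fell, from control cultures that were far apart, and their changes were not tested against each other. EPHA2, which binds A-type ephrins, had 336 and 869 CPM in shNSi and 275 and 272 CPM in shDAP5 heavy polysomes (log2 change −1.05, standard error 0.37, adjusted p = 0.0208, edgeR). EPHB2 had 106 and 219.7 CPM in shNSi and 41.9 and 68.6 CPM in shDAP5 (log2 change −1.48, standard error 0.34, adjusted p = 0.000323, edgeR). For both receptors the lower shNSi culture was replicate 1. In EPHA2 it exceeded the silenced cultures by far less than replicate 2 did.

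AXL had 1124 and 1524 CPM in shNSi and 492 and 861 CPM in shDAP5 heavy polysomes, without overlap, and a log2 change of −0.89 (standard error 0.38) that missed the threshold with an adjusted p of 0.0573 by the quasi-likelihood test of edgeR, Benjamini-Hochberg adjusted. With DESeq2 the AXL change was −0.98 (adjusted p = 0.0259), and in edgeR it was −1.18 without shNSi replicate 1 (adjusted p = 0.0296). It did not pass without shNSi replicate 2 (−0.72, adjusted p = 0.268), without shDAP5 replicate 1 (−0.62, adjusted p = 0.389), without shDAP5 replicate 2 (−1.36, adjusted p = 0.136) or without TMM (−0.67, adjusted p = 0.143, edgeR). FGFR1 had 152 and 189 CPM in shNSi and 131 and 186 CPM in shDAP5, which overlapped. Its log2 change was −0.03 (standard error 0.34), with a positive sign without TMM (0.20) and with quantile normalization and limma (0.22). PDGFRB, at 34 and 37 reads against 27 and 35, had a log2 change of −0.35 (standard error 0.51), which ran from −0.66 to −0.17 with a culture left out. MST1R was at 0.01 without TMM. Both shDAP5 cultures were below both shNSi cultures for 8 of 10 receptors, against 33.2% of all genes.

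The heavy polysome calls rested on single libraries to different degrees. Without shNSi replicate 2 the calls of MET (−1.70) and DDR2 (−1.73) were kept, whereas IGF1R (−0.82), INSR (−0.83), EPHB2 (−0.92) and EPHA2 (−0.28) did not pass, in a fit that called 2106 of 14957 genes, 1260 of them lower. EPHA2 also missed the threshold without shDAP5 replicate 1 (−1.15, adjusted p = 0.0909, edgeR). Without shDAP5 replicate 2 no receptor passed and 2 of 14891 genes passed in all, although the log2 changes of MET (−1.92) and DDR2 (−1.83) were close to the values with all libraries. In such fits the lone culture of a line is assumed to vary like the pair of the other line. CPM are shares of a library, and fewer cells with an mRNA and less of it per cell cannot be told apart in these bulk libraries.

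**Figure D2:**
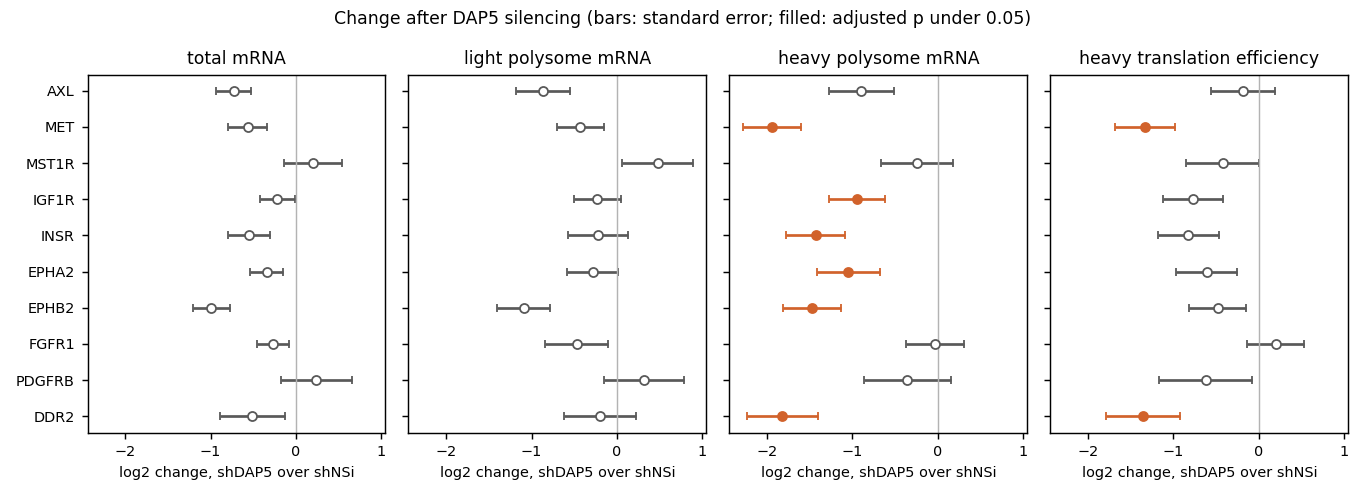
Log2 change of each receptor, shDAP5 over shNSi, in total mRNA, light polysomes, heavy polysomes and heavy translation efficiency; horizontal bars are standard errors of the edgeR fit over 2 cultures a group and filled orange points have an adjusted p under 0.05. The 6 filled points in heavy polysomes run from −1.94 (MET) to −0.94 (IGF1R), and those of translation efficiency are MET (−1.33) and DDR2 (−1.36).

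In light polysomes no receptor passed the adjusted threshold in edgeR, with 2 of 10 at an unadjusted p under 0.05 in edgeR and in DESeq2. Of all 15529 genes 0.0% passed the adjusted threshold and 8.56% had an unadjusted p under 0.05 in edgeR. EPHB2 had 33.7 and 58.9 CPM in shNSi and 21.0 and 21.7 CPM in shDAP5 light polysomes (log2 change −1.09, standard error 0.31, adjusted p = 0.475, edgeR). AXL had 633 and 733 CPM against 319.8 and 416 CPM (log2 change −0.87, standard error 0.32, adjusted p = 0.537, edgeR). These were the receptors with the largest log2 changes in light polysomes, and neither overlapped between lines. MET, with 61.2 and 47.7 CPM against 34.9 and 44.8 CPM, had a log2 change of −0.43 (standard error 0.28). With a culture left out the MET value ran from −0.62 to −0.24. The other receptors had log2 changes from −0.47 (FGFR1) to 0.48 (MST1R). Both shDAP5 cultures were below both shNSi cultures for 4 of 10 receptors, against 21.3% of all genes. Without shNSi replicate 1 the light polysome changes of EPHB2 (−1.45), AXL (−0.98) and FGFR1 (−0.91) passed, in a fit that called 4678 of 16190 genes, 2637 of them lower. Without shNSi replicate 2 that of AXL did (−0.77), among 781 of 16193 genes, and EPHB2 was at −0.65 (adjusted p = 0.0750, edgeR). Without shNSi replicate 2 the FGFR1 value was 0.14 and the INSR value 0.06.

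Translation efficiency was taken as the level in polysomes over that in total mRNA of the same culture. For heavy polysomes it fell for MET and DDR2, that is for 2 of 10 receptors, against 8.23% of 15374 genes called lower. On the log2 scale MET heavy over total was 0.62 and 1.41 in the shNSi cultures and 0.07 and −0.75 in the shDAP5 cultures. DDR2 heavy over total was 0.55 and 1.80 in shNSi and 0.05 and −0.51 in shDAP5. The DDR2 ratios rest on total mRNA libraries with 146 and 71 reads in shNSi and 59 and 92 reads in shDAP5, whose levels overlapped. In both receptors every silenced culture was below every control culture. The change was −1.33 for MET (standard error 0.35, adjusted p = 0.0140) and −1.36 for DDR2 (standard error 0.44, adjusted p = 0.0332, quasi-likelihood test of edgeR, Benjamini-Hochberg adjusted). Neither passed without TMM (MET −1.12, adjusted p = 0.0997, and DDR2 −1.15, adjusted p = 0.135, edgeR). Nor did they with no culture term (adjusted p = 0.116 and 0.165, edgeR) or with limma (adjusted p = 0.0611 and 0.0595). Without TMM and with no culture term 0 of 15374 genes passed in all. The MET and DDR2 changes share all 4 heavy libraries with the heavy polysome comparison and are not independent of it.

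INSR (−0.83, adjusted p = 0.108) and IGF1R (−0.77, adjusted p = 0.129, edgeR) had an unadjusted p under 0.05 without passing the adjusted threshold. Across the fits with 1 culture left out INSR ran from −1.20 to −0.48 and IGF1R from −1.18 to −0.40. Both were nearest 0 without shNSi replicate 2. EPHA2 at −0.61, PDGFRB at −0.62, EPHB2 at −0.48 and MST1R at −0.42 had smaller values relative to their standard errors of 0.34 to 0.54. With 1 culture left out these ran from −1.03 to −0.22 for EPHA2, −0.89 to −0.38 for PDGFRB, −0.74 to −0.26 for EPHB2 and −0.85 to −0.0099 for MST1R, with the values nearest 0 without shNSi replicate 2 in all but PDGFRB, where it was shDAP5 replicate 1. EPHB2, called in heavy polysomes, had a log2 change in total mRNA of −0.99 beside that value. AXL at −0.18 was close to no change and had a positive sign without TMM (0.03), and FGFR1 was at 0.20. Groups did not overlap, with the silenced cultures lower, for 7 of 10 receptors, against 28.9% of all genes, and FGFR1 was the receptor with both silenced cultures higher. The median change was −0.61, against 0.09 over all genes. Both calls were kept without shNSi replicate 1 (−1.74 and −2.02) and without shDAP5 replicate 1 (−1.74 and −1.62). Leaving out shNSi replicate 2 gave −0.96 for MET (adjusted p = 0.597) and −0.78 for DDR2 (adjusted p = 0.681), and leaving out shDAP5 replicate 2 gave −0.93 (adjusted p = 0.177) and −1.08 (adjusted p = 0.207, edgeR), and neither passed. In these fits 4 of 15976 and 43 of 15914 genes passed in all. Leaving out shDAP5 replicate 1 brought IGF1R (−1.06) and INSR (−0.96) past the threshold, in a fit that called 4515 of 15845 genes, 2453 of them lower. Light translation efficiency changed by −0.10 to 0.36 across the receptors, and 0.0% of 15967 genes and no receptor passed, with none of 10 at an unadjusted p under 0.05 in edgeR or in DESeq2, against 5.22% of all genes in edgeR.

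The heavy over light difference was also compared between the lines, as a measure that does not use total mRNA. For MET log2 heavy over light was 1.43 and 2.35 in shNSi and 0.56 and 0.13 in shDAP5 cultures. For DDR2 it was 1.35 and 2.05 against 0.22 and −0.17. The silenced cultures were again lower in both receptors. The difference of differences was −1.59 for MET (standard error 0.43, adjusted p = 0.0343) and −1.72 for DDR2 (standard error 0.49, adjusted p = 0.0406, quasi-likelihood test of edgeR, Benjamini-Hochberg adjusted), so that 2 of 10 receptors passed against 5.21% of 15878 genes called lower. INSR reached −1.24 (adjusted p = 0.0695, edgeR), and AXL (−0.15) and FGFR1 (0.25) were closest to 0. Leaving out shNSi replicate 2, shDAP5 replicate 1 or shDAP5 replicate 2 ended both calls, with MET at −1.13, −1.85 and −1.36 and DDR2 at −1.36, −1.96 and −1.501. Without shDAP5 replicate 2 only 2 of 16584 genes passed in all. With the shNSi moderate pool in place of the light one both calls were kept, in a fit that called 3762 of 15754 genes, 1887 of them lower (MET −1.16, adjusted p = 0.0246, and DDR2 −1.38, adjusted p = 0.0232, edgeR). Coding length offsets, described next, ended both calls as well, with MET at −0.58 (adjusted p = 0.354) and DDR2 at −1.01 (adjusted p = 0.231, edgeR).

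Coding length moved with these results across all genes. Spearman's rho between coding length and the change in heavy translation efficiency was −0.71 over 12462 genes, that with the heavy polysome change was −0.65 over 12120 genes, and that with the total mRNA change was −0.11 over 12273 genes. Genes of a library share its depth and composition, so these are descriptions. The receptors, all long, lay in the part of the distribution where changes were mostly negative. When each library was given an offset fitted to coding length, 2 receptors passed in heavy polysomes against 6.4% of 12120 genes called lower, MET at −1.05 (adjusted p = 0.0206) and DDR2 at −1.20 (adjusted p = 0.0474, edgeR's quasi-likelihood test). EPHB2 (−0.70), INSR (−0.51), EPHA2 (−0.30) and IGF1R (−0.10) did not. No receptor passed in heavy translation efficiency with the offsets, against 5.02% of all genes, and MET was at −0.50 (adjusted p = 0.264) and DDR2 at −0.77 (adjusted p = 0.239, edgeR), and the median of the receptors was 0.09 against 0.03 over all genes.

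With the same offsets the heavy over light difference in shNSi cells passed for INSR (0.67), EPHB2 (0.64) and MET (0.59), which were higher in heavy polysomes, and for FGFR1 (−0.74), which was lower there. These were 4 of 10 receptors, against 51.3% of 12579 genes called in either direction. The total mRNA changes moved little with the offsets, with EPHB2 at −0.99, AXL at −0.73 and MET at −0.55. Whether coding length itself, or another property of long mRNAs, accounts for the shared direction was not tested.

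**Figure D3:**
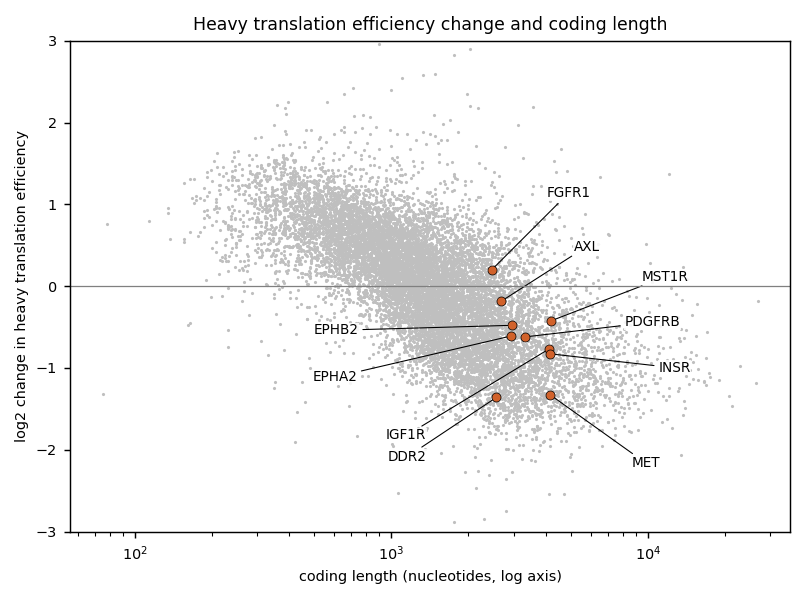
Change in heavy translation efficiency (log2, shDAP5 over shNSi) against coding length in nucleotides on a log axis, with grey points for the 12462 genes tested that have a coding length and orange points for the 10 receptors; 23 genes lie beyond the vertical axis. Longer genes lie lower on the whole, and of the receptors only FGFR1 (0.20) is above 0 while DDR2 (−1.36) and MET (−1.33) are lowest.

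The choice of the control pool changed the sign or the call for most receptors. No shDAP5 library is titled as a moderate pool, but those titled light carry the code of the shNSi moderate libraries, so that by code the shNSi moderate pool is the control of shDAP5 light polysomes. MET was at 65.1 and 88.3 CPM and DDR2 at 3.69 and 2.97 CPM in the shNSi moderate libraries, between their light and heavy levels. With the moderate pool as the control, no receptor and 50 of 14539 genes passed in heavy polysomes, and the changes were −0.58 for MET, −0.57 for DDR2, −0.76 for EPHB2, −0.77 for AXL, −0.12 for INSR, 0.075 for EPHA2 and 0.10 for IGF1R. With shNSi heavy and moderate counts summed in each culture, MET (−1.36, adjusted p = 0.0102) and EPHB2 (−1.14, adjusted p = 0.0461, edgeR) passed, against 2.22% of all genes called lower, and DDR2 was at −1.28 (adjusted p = 0.131, edgeR). Heavy translation efficiency with the summed control was −0.63 for MET and −0.71 for DDR2, and neither passed, in a fit where 0 of 15386 genes did. In that comparison by code, with the moderate pool as the control for shDAP5 light polysomes, EPHB2 (−2.07, adjusted p = 0.0141) and AXL (−1.58, adjusted p = 0.0195, edgeR) passed, against 13.0% of all genes called lower. The heavy libraries of both lines share title and code, so no label names the moderate pool as their control. Among the polysome libraries, title and code are at odds for shDAP5 light polysomes alone. Which shNSi pool holds the same ribosome numbers as the shDAP5 pools cannot be told apart from these counts.

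**Figure D4:**
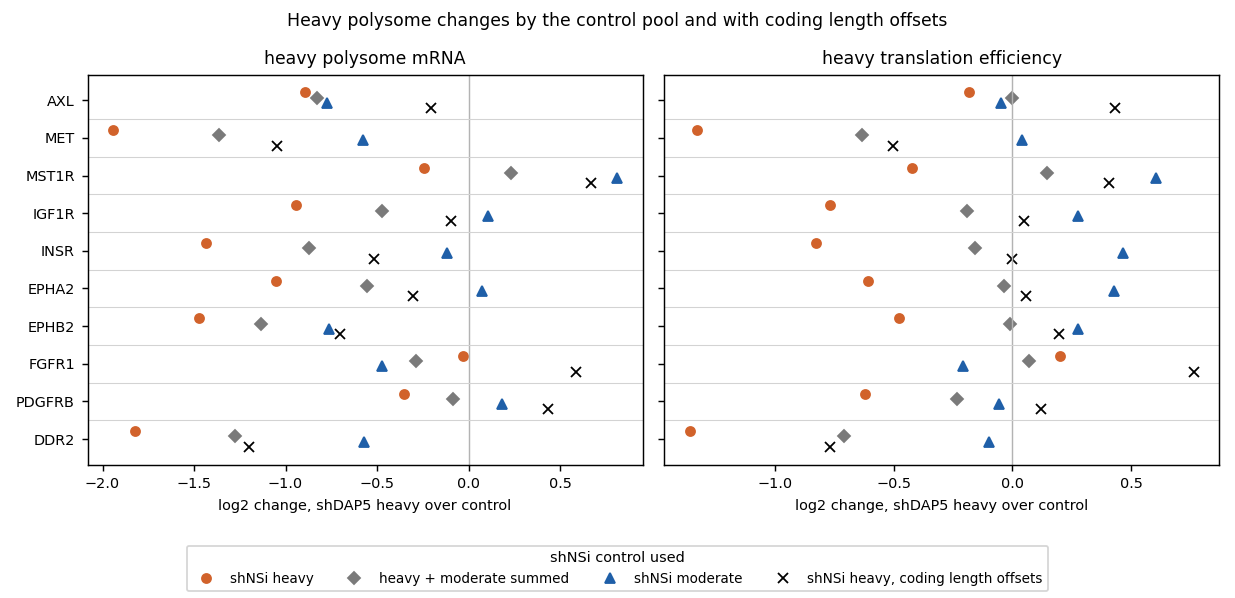
Log2 change of each receptor in heavy polysomes (left) and in heavy translation efficiency (right) with the shNSi heavy pool, heavy and moderate summed, or the moderate pool as control, and with the heavy pool and coding length offsets. MET in heavy polysomes runs from −1.94 over −1.36 and −1.05 to −0.58, and its translation efficiency from −1.33 to 0.04.

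The genes around the receptors were described from lists chosen from textbook knowledge, and no gene of these lists passed in total mRNA. Every call in heavy translation efficiency given below, in any list, was lost in 3 alternatives. These were the fits without TMM and with no culture term (0 of 15374 genes called in each) and that with the summed control (0 of 15386). Of the ligands, 16 of 21 could be tested in heavy polysomes, where 3 were lower, 1 was higher and 12 did not pass, close to the 16.7% of all genes called lower and below the 14.2% called higher. The lower ones were PROS1, which encodes protein S, a relative of GAS6 best known as a ligand of TYRO3 and MERTK (−2.16, adjusted p = 2.78e-07 by the quasi-likelihood test of edgeR, Benjamini-Hochberg adjusted), and the collagen genes COL1A1 (−1.67) and COL5A1 (−1.38), whose fibrils are ligands of DDR2. PROS1 had 44.5 and 77.7 CPM in shNSi and 13.1 and 12.6 CPM in shDAP5 heavy polysomes, without overlap. All 3 also fell in heavy translation efficiency (−1.29, −1.10 and −1.22), as did the scarce COL1A2 (−2.54), which made 4 of 16 against 8.23% of all genes. The median of the list in heavy translation efficiency was 0.19, above the 0.09 of all genes. COL1A2 and the gene higher in heavy polysomes, the ephrin gene EFNA3 (1.52), were named after their values were seen. The median log2 change of the list in heavy polysomes was −0.16.

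Among the other receptor tyrosine kinases, 25 of 48 could be tested in heavy polysomes, and 8 were lower (against 16.7% of all genes), 1 was higher (against 14.2%) and 16 did not pass. EGFR had 233 and 339 CPM in shNSi and 83.9 and 67.2 CPM in shDAP5 heavy polysomes (log2 change −1.84, standard error 0.35, adjusted p = 1.57e-05, edgeR). PTK7, a kinase-inactive receptor of WNT signalling, had 93.4 and 225 CPM against 32.1 and 42.9 CPM (−2.00, standard error 0.34, adjusted p = 1.97e-06, edgeR). EGFR (−1.20) and PTK7 (−1.14) were also the 2 of 27 called in heavy translation efficiency, a share near the 8.23% of all genes. With a culture left out EGFR ran from −1.80 to −0.61 and PTK7 from −1.48 to −0.82 there. LMTK2 fell by 1.05 on the log2 scale in heavy polysomes, and the higher gene was NTRK2 (1.21), named after its value was seen. The list had a median of −0.56 in heavy polysomes and −0.32 in heavy translation efficiency.

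Of 23 adaptors and effectors tested, 4 were lower in heavy polysomes and 19 did not pass, with a median of −0.11. That share is near the 16.7% of all genes called lower. PLCG1, which is phospholipase C gamma, had 156 and 293 CPM in shNSi and 85.8 and 62.2 CPM in shDAP5 (−1.52), and the transcription factor gene STAT3 had 308 and 435 CPM against 151 and 104 CPM (−1.47). Both were also lower in heavy translation efficiency (−1.26 and −1.25), as the 2 of 23 called there, near the 8.23% of all genes. IRS2, an adaptor of INSR and IGF1R, fell by 1.16 on the log2 scale, and PIK3R1 (−0.89) was the remaining gene, named after its value was seen.

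Of 20 negative regulators 4 were lower in heavy polysomes, 2 were higher and 14 did not pass, with a median of 0.37, against 16.7% of all genes called lower and 14.2% higher. The transmembrane phosphatase genes PTPRK (−1.66) and PTPRF (−1.36) and the ubiquitin ligase gene CBL (−0.91) were lower, as was CBLB (−0.89), named after its value was seen. SPRY1, a feedback inhibitor of RAS-MAPK signalling, had 27.5 and 21.4 CPM in shNSi and 73.2 and 45.3 CPM in shDAP5 (1.34), and SOCS3, an inhibitor of cytokine and insulin receptor signalling, had 58.5 and 64.0 CPM against 86.3 and 119 CPM (0.81). PTPRK (−1.12) was the regulator called in heavy translation efficiency, where 8.23% of all genes were called lower.

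Genes for receptor processing, shedding and ligand activation had 6 of 16 lower in heavy polysomes (against 16.7% of all genes), none higher and 10 that did not pass, with a median of −0.63. ADAM10, a protease that sheds receptors and ephrins, had 114 and 172 CPM in shNSi and 35.3 and 30.2 CPM in shDAP5 (−2.05, standard error 0.34, adjusted p = 6.55e-07, edgeR). The co-receptor gene NRP1 (−1.79) and the sheddase gene ADAM17 (−1.59) were lower too. These genes and NRP2 (−1.33, named after its value was seen) were the 4 of 16 called in heavy translation efficiency (against 8.23% of all genes), where ADAM10 was at −1.58, NRP1 at −1.48 and ADAM17 at −1.15. A control of the moderate pool turned the sign of several of these changes, among them NRP1 in heavy polysomes (0.02) and ADAM10 in heavy translation efficiency (0.28).

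The receptors were not all alike in their profile over the 14 libraries. Pearson's r of a receptor's log2 CPM with the mean of the other 9, libraries of 4 cultures that share their gradients, was 0.963 for INSR, 0.923 for EPHB2 and 0.920 for MET, between 0.793 and 0.838 for DDR2, AXL, IGF1R and EPHA2, and 0.544 for FGFR1, 0.510 for PDGFRB and 0.356 for MST1R. Among 9380 genes with a mean of at least 10 CPM, 4 of those whose log2 CPM was most correlated with the mean receptor profile over these libraries were GLB1 (0.983), PLBD2 (0.982), GALNT6 (0.980) and PIGO (0.979).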

How the data were processed

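The authors deposited whole-number read counts per gene symbol for each of the 14 libraries, without normalization. The submitters' processing notes name STAR 2.6.0a, limma and hg19 without a role. The deposited counts are labelled featurecounts and rev, but the strand setting of the counting is not stated in the sources used here. Whether reads of a receptor and of an overlapping antisense gene were counted apart is therefore not known. Of the 58434 symbols, 37621 matched GENCODE v29 (GRCh38), from which lengths, start codons and transcript sequences came, and 27 had been turned into dates. The depth was 25899838 to 30795910 counts per library. The receptors and the lists were chosen with earlier results of these data known.

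Counts were analysed in R 4.3.3 with edgeR 4.0.16 (filterByExpr, TMM, robust quasi-likelihood fit), fitting the 4 libraries of a fraction together. Translation efficiency and heavy over light were tested over 8 libraries with a term for each culture and the interaction of fraction and shRNA. Adjusted p-values (Benjamini-Hochberg) cover all genes tested, and 0.05 was the threshold. The smallest two-sided p of an exact permutation test of 2 cultures against 2 is 0.333. The spread in edgeR is estimated with information from all genes. The study describes its 2 sets of cultures as independently performed. CPM in the text use TMM factors over all 14 libraries (0.740 to 1.19), and fold changes the scaling of each fit.

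Named were EIF4G2, all receptors and, per list and direction, at most 3 genes past the threshold in heavy polysomes or heavy translation efficiency with at least 5 CPM in total mRNA and the largest heavy change. From the marker list and from the genes most like the receptor profile, 1 gene is not reported here. Alternatives were DESeq2 1.42.0, no TMM, limma 3.58.1 on quantile-normalized log2 of CPM plus 1, other low-count filters, other control pools, coding length offsets (a spline per library), all 14 libraries in 1 fit, no culture term, the replicate number as a block and each culture left out. The crossed block and every alternative for the heavy over light difference between lines were chosen after seeing the data.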

Additional observations from a re-analysis of the deposited data

Results flagged for a closer look

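The heavy over light difference of 2 receptors differed between the lines by an interaction test, and each is given as a value without explanation. For MET the log2 difference between shDAP5 and shNSi in heavy over light was −1.59 (adjusted p = 0.0343, quasi-likelihood test of edgeR, Benjamini-Hochberg adjusted), and for DDR2 it was −1.72 (adjusted p = 0.0406, edgeR). Over all genes 5.21% were called lower. Leaving out shNSi replicate 2, shDAP5 replicate 1 or shDAP5 replicate 2 ended both calls, limma ended that of MET (adjusted p = 0.0692) and no TMM that of DDR2 (adjusted p = 0.0544, edgeR). With coding length offsets they were −0.58 (adjusted p = 0.354) and −1.01 (adjusted p = 0.231, edgeR), and neither passed. In each receptor both shDAP5 cultures were below both shNSi cultures. Groups of 2 cultures are too small for a check of single libraries that stand far from their group.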

How the results depend on the processing

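With 2 cultures a group and 24 to 43 reads for PDGFRB, precision is limited by both. Beyond leaving out cultures, 947 single-gene values were recomputed, of which 682 kept their direction and side of the threshold, 168 lost the call, 26 gained it and 71 changed sign. The cause of a change was not tested unless stated.

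Counts of receptors called moved as follows. In total mRNA (0 of 10) they were 1 with DESeq2, 2 with no low-count filter, 2 with the replicate block and 1 with length offsets and the block. In heavy polysomes (6) they were 7 with DESeq2, with no low-count filter and with all 14 libraries in 1 fit, 6 with at least 10 counts, 5 with limma, 4 without TMM, 2 with length offsets, 3 with offsets and the block, 2 with heavy and moderate summed and 0 with the moderate pool. In heavy translation efficiency (2) they were 1 with DESeq2, which gave DDR2 no adjusted p, and 0 without TMM, with limma, with no culture term, with length offsets, with offsets and the block, and with the moderate or the summed control. In light polysomes (0) they were 1 with no low-count filter, 1 with offsets and the block and 2 with the moderate pool, which gave 1 in light translation efficiency (0). In shNSi heavy over light (8) they were 8 with no low-count filter. They were 7 with DESeq2, with limma and with the moderate pool in place of light, 6 with at least 10 counts and 5 without TMM. With the 4 shNSi libraries they were 5 and with length offsets 4. The limma fit left out AXL (adjusted p = 0.101) and EPHA2 (adjusted p = 0.337) and called PDGFRB (adjusted p = 0.0145, limma). In the heavy over light difference between lines (2) they were 1 without TMM (DDR2 lost, adjusted p = 0.0544, edgeR), 1 with limma (MET lost, adjusted p = 0.0692) and 0 with length offsets, and of the 2 with DESeq2 DDR2 was not one, as it had no adjusted p. Leaving out a culture gave 0 to 3 in total mRNA, 0 to 7 in heavy polysomes, 0 to 3 in light polysomes, 0 to 4 in heavy translation efficiency, 0 in light translation efficiency, 5 to 7 in shNSi heavy over light and 0 to 3 in the difference between lines.

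Over all genes, calls in total mRNA (53) were 273 with DESeq2, 18 without TMM, 8 with limma, 577 with no low-count filter, 9 with length offsets over fewer genes, 67 with offsets and the block, 3 with all 14 libraries and 0 to 386 with a culture left out. In heavy polysomes (4414) they were 4037 with DESeq2, 3793 with no low-count filter, 3847 with all 14 libraries, 4315 with at least 10 counts, 3903 with limma, 3643 without TMM, 3098 with offsets and the block, 1392 with length offsets, 421 with the summed and 50 with the moderate control, and 2 to 3559 with a culture left out. In heavy translation efficiency (2012) they were 757 with limma, 626 with offsets, 530 with offsets and the block, 0 without TMM, with no culture term and with either other control, and 4 to 4515 with a culture left out. In light polysomes (0) they were 105 with DESeq2, 244 with no low-count filter, 3 with offsets, 166 with offsets and the block, 1 with all 14 libraries, 3940 with the moderate and 114 with the summed control, and 2 to 4678 with a culture left out. In light translation efficiency (0) they were 3 with no low-count filter, 5 with offsets and the block, 4367 with the moderate and 454 with the summed control, and 0 to 2030 with a culture left out. In shNSi heavy over light (9783 of 15878) they were 9194 with DESeq2, 8931 with limma and 10443 without TMM. They were 9352 with no low-count filter, 8591 with at least 10 counts and 9174 with the 4 shNSi libraries. With offsets they were 6449 and with the moderate pool in place of light 6084. In the difference between lines (1072) they were 1965 with DESeq2, 1637 without TMM, 154 with offsets, 3762 with the moderate pool and 2 to 2929 with a culture left out.

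Omitting TMM moved the median log2 change of all genes from 0.09 to 0.34 in heavy polysomes, from 0.09 to 0.30 in heavy translation efficiency, from −0.15 to −0.59 in shNSi heavy over light and from 0.05 to 0.29 in the difference between lines. The calls lower and higher went from 2390 and 2024 to 1139 and 2504 in heavy polysomes, from 4937 and 4846 to 6808 and 3635 in shNSi heavy over light and from 827 and 245 to 642 and 995 in the difference between lines. With limma they were 307 and 450 in heavy translation efficiency, against 1266 and 746, and 476 and 255 in the difference between lines.

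Signs turned for these log2 changes. With length offsets in heavy polysomes FGFR1 was 0.59, PDGFRB 0.43 and MST1R 0.67, and with the block added 0.55, 0.40 and 0.68. In heavy translation efficiency with offsets AXL was 0.43, IGF1R 0.048, EPHA2 0.059, EPHB2 0.20, PDGFRB 0.12, MST1R 0.41, LMTK2 0.17 and IRS2 0.13, and with the block added 0.43, 0.048, 0.060, 0.20, 0.11, 0.42, 0.17 and 0.13, with INSR at 0.0023. In shNSi heavy over light with offsets AXL was −0.13, EPHA2 −0.13, FGFR1 −0.74, PDGFRB −0.55 and MST1R −0.45. Without TMM FGFR1 was 0.20 and MST1R 0.0095 in heavy polysomes, AXL 0.030 in heavy translation efficiency and FGFR1 −0.21 in shNSi heavy over light. Receptors below 0 went with offsets from 9 to 3 in the difference between lines (median −0.78 to 0.13) and from 3 to 7 in light translation efficiency (median 0.087 to −0.091). With limma FGFR1 was 0.22 in heavy polysomes and −0.27 in shNSi heavy over light. FGFR1 was 0.010 in heavy polysomes with at least 10 counts and −0.38 with the moderate pool in place of light in shNSi. With the summed control MST1R was 0.23 in heavy polysomes and 0.15 in heavy translation efficiency.

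With the moderate pool as control, heavy polysome values turned to 0.10 for IGF1R, 0.075 for EPHA2, 0.18 for PDGFRB, 0.81 for MST1R, 0.50 for COL1A1, 0.45 for COL5A1, 0.62 for PLCG1, 0.72 for STAT3, 0.032 for PTPRF, 0.70 for CBL and 0.020 for NRP1. Heavy translation efficiency values turned to 0.041 for MET, 0.28 for IGF1R, 0.47 for INSR, 0.43 for EPHA2, 0.28 for EPHB2, −0.21 for FGFR1, 0.61 for MST1R, 1.02 for COL1A1, 0.52 for COL5A1, 0.66 for PTK7, 0.42 for EGFR, 0.066 for LMTK2, 0.90 for PLCG1, 0.95 for STAT3, 0.33 for IRS2, 0.15 for PTPRK, 0.49 for PTPRF, 0.63 for CBL, −0.10 for SOCS3, 0.28 for ADAM10, 0.28 for NRP1 and 0.15 for ADAM17.

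With a culture left out, heavy polysome values ran from −0.31 to 0.13 for FGFR1 and from −0.69 to 0.17 for MST1R, total mRNA values from −0.91 to 0.018 for DDR2, light polysome values from −0.40 to 0.020 for DDR2, −0.47 to 0.060 for INSR and −0.91 to 0.14 for FGFR1, and shNSi heavy over light from −0.13 to 0.61 for FGFR1.

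Labels give both lines the numbers 1 and 2 without saying that a number marks a shared batch. The library descriptions also carry R11 and R3 for shNSi replicates 1 and 2, and R4 and R5 for shDAP5 replicates 1 and 2. What these marks stand for is not given. Deviations from the group means of cultures with one number correlated at −0.10 in total mRNA, 0.05 in heavy and light polysomes, −0.20 in heavy and −0.02 in light translation efficiency, and the numbers were not taken to pair the cultures, although the study describes 2 independent sets. With the replicate block, calls over all genes were 365 in total mRNA, 4710 in heavy polysomes, 130 in light polysomes, 688 in heavy and 1 in light translation efficiency, with 2, 5, 0, 1 and 0 receptors. The call of EPHA2 in heavy polysomes (adjusted p = 0.0960) and that of DDR2 in heavy translation efficiency (adjusted p = 0.0538, edgeR) were lost, and in total mRNA AXL (adjusted p = 0.00720) and EPHB2 (adjusted p = 0.00336, edgeR) gained one. AXL also passed with offsets and the block (adjusted p = 0.0485, edgeR). With the pairing crossed, calls were 71 in total mRNA with 0 receptors and 4133 in heavy translation efficiency with 4.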
